A study of Mus musculus with 20 samples.

Results

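Apolipoprotein genes were followed through single-cell libraries of the injured mouse spinal cord: Apoe, Apoc1, Apoc2, Apoc4 and Apod. They were taken by symbol, and all 5 of 5 were found among the 16003 genes of the count table. Unique molecular identifiers (UMIs), each standing for 1 captured transcript, were summed over the cells of a cluster in a library and are given as CPM, the sum of a gene scaled to the sum of all genes. The table held 21016 cells in 14 clusters and 6 libraries. The libraries came from spinal cords of C57BL/6J females aged 8 to 10 weeks that ate vehicle chow or chow with 1200 ppm PLX5622, an inhibitor of the Csf1 receptor on which microglia depend, from 2 weeks before surgery until the end. Under each diet 1 library was from sham mice (laminectomy alone), 1 from cords 7 days after a thoracic contusion (7 dpi) and 1 from cords at 28 dpi, so both times share 1 sham reference per diet. Each library pooled several mice, with 1 cm of cord and its meninges taken without perfusion and with myelin and dead cells removed. With 1 pool per condition there was no replicate check and no test, and all intervals are 95% and cover counting error only, neither differences between mice nor the clumping of transcripts in a few cells.

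Apolipoproteins are the protein part of lipoprotein particles and carry cholesterol and other lipids between cells. In the central nervous system Apoe, which binds receptors of the LDL receptor family, is made mainly by astrocytes and by microglia that have left their resting state, and it takes up cholesterol that cells export through Abca1 and Abcg1. The Apoc proteins are small exchangeable apolipoproteins: Apoc2 activates lipoprotein lipase, Apoc1 interferes with lipase activity and with receptor uptake of particles, and Apoc4 is the least studied of them. Apod is unrelated in fold to these, being a lipocalin that binds small lipids such as arachidonic acid, and is known from fibroblasts, glia and nerve repair.

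The genes Apoe, Apoc1, Apoc4 and Apoc2 lie side by side. In GENCODE annotation of GRCm38, all on the minus strand and all protein coding, Apoe lies at chr7:19696109-19699188, Apoc1 at chr7:19689481-19692660, Apoc4 at chr7:19678083-19681479 and Apoc2 at chr7:19671579-19677941, within 27610 bases. Apoc4 ends only 141 bases before Apoc2 starts, so a few reads of 1 may have been counted for the other, and the split between these 2 genes is uncertain. Apod is on another chromosome, at chr16:31296192-31314808. The sequences just before the gene starts are shown because 4 members are neighbours that were high in the same clusters while Apod was not. They come from RefSeq (GRCm38.p6), run 5′ to 3′ on the gene's strand and end at the base before the start, and capitals mark matches to the motifs searched. The Apoc2 sequence (chr7:19677942-19678082) is the whole gap to Apoc4, that of Apoc4 is chr7:19681480-19681710, that of Apoe chr7:19699189-19699438 and that of Apod chr16:31314809-31315058. Apoc1 is named only.
Apoe: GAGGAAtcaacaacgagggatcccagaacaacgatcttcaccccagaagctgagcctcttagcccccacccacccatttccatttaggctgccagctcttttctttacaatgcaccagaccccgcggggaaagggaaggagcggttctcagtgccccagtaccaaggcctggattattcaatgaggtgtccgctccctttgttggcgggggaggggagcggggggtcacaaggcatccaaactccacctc
Apoc4: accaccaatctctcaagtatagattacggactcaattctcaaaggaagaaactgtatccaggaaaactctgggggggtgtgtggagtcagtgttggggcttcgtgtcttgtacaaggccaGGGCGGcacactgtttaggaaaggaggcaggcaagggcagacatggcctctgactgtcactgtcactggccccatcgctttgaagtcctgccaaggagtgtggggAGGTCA
Apoc2: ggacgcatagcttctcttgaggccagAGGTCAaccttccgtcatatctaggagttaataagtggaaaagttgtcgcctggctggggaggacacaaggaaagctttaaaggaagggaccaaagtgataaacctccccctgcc
Apod: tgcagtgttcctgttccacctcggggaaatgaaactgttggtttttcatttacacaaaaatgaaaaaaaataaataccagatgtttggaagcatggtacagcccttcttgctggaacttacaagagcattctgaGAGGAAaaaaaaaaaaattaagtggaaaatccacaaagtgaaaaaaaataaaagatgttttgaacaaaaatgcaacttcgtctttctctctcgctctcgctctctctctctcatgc
Motifs were searched on both strands. AGGTCA, the half-site of nuclear receptors, was found 6 bases before the start of Apoc4 and 115 bases before that of Apoc2, and 14% of 32851 promoter windows of 250 bases held it. GAGGAA, the core bound by PU.1, a factor of myeloid cells, was found 250 bases before Apoe and 116 bases before Apod, and 23.3% of windows held it. GGGCGG, the GC box (32.7% of windows), was found 111 bases before Apoc4. TGANTCA, the AP-1 motif (6.75%), and TATAAA, the TATA box (12.4%), were found in none of these 4 sequences. The Apoc4 and Apoc2 sequences, of 231 and 141 bases, are shorter than the windows behind these shares. Distances are to the GENCODE starts given above. These are matches of letters only.

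Under vehicle the libraries held 1795 (sham), 7439 (7 dpi) and 9846 (28 dpi) cells, and under PLX5622 they held 492, 504 and 940, with a median of 2268.5 to 5127 UMIs per cell. Clusters were named from marker genes as cells like a type, and are called here the microglia, macrophage or astrocyte cluster for short. Microglia markers were highest in their cluster for 5 of 6 genes, all but Sall1, and the markers of monocyte-derived macrophages and of astrocytes for 6 of 6 each. The monocyte cluster was highest for 5 of 6 markers of monocytes or dendritic cells, all but Ly6c2. Its leading genes included the MHC class II genes H2-Eb1, H2-Aa and H2-Ab1, so it may hold both types. The microglia cluster held 674 of the sham vehicle cells and 29 of the sham PLX5622 cells. After injury P2ry12, which marks resting microglia, was at 351 and 510 CPM in the microglia cluster, against 2410 in sham. The T cell cluster was led by Gzma, and another cluster held both pericyte and fibroblast markers and is called the Dcn and Vtn cluster. Over all pairs of libraries 44 cell barcodes were shared. The 3 PLX5622 libraries hold few cells, and ratios were taken only with 20 or more cells on both sides, unless said otherwise.

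Over all libraries, 89% of Apoe UMIs lay in the microglia and macrophage clusters, as did 89.9% of Apoc1, 83.1% of Apoc2 and 89.7% of Apoc4 UMIs. These clusters held 65.7% of the cells. Apod was placed elsewhere, with 1.1% of its UMIs there and 76.9% (76.1 to 77.7) in the Dcn and Vtn cluster, which held 0.799% of the cells. The members made up 1.89%, 7.87% and 8.46% of all UMIs in sham cords and those at 7 and 28 dpi under vehicle, while the shares under PLX5622 were 0.547%, 4.09% and 3.36%, nearly all of it Apoe. Where microglia were few and the cord uninjured, the order was another one. In sham cords under PLX5622, 62.7% (61.9 to 63.5) of Apoe UMIs were in astrocytes, which were 41.5% of the cells, and 27 of 30 Apoc1 UMIs were there too. Apoe was highest in the macrophage cluster in the sham, 7 dpi and 28 dpi libraries of the vehicle diet.

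In sham cords under vehicle the order of Apoe after macrophages was monocytes, astrocytes, the erythroid cluster (9890 CPM) and microglia, all apart beyond counting error. Below these came B cells, endothelial, oligodendrocyte lineage (2320 CPM) and ependymal cells, whose intervals overlapped from 1 to the next. Proliferating cells (1016 CPM), the Dcn and Vtn cluster (848 CPM) and T cells overlapped likewise, and neutrophils (416 CPM) and the Mgp cluster (180 CPM) were lowest. At 7 dpi under vehicle macrophages, the erythroid cluster (83597 CPM), microglia, astrocytes, B cells and T cells followed each other, all apart, and T cells overlapped with proliferating cells (46243 CPM). At 28 dpi under vehicle the order was macrophages, microglia, the erythroid cluster (70478 CPM), astrocytes, B cells, proliferating cells (40111 CPM), T cells and monocytes. Of these neighbours none overlapped, and neutrophils (32031 CPM) and the Dcn and Vtn cluster (30916 CPM) did. In the injured vehicle libraries the erythroid cluster was also rich in RNA of myeloid cells, as given below. Under PLX5622 at 28 dpi macrophages, microglia, astrocytes and monocytes came first, in this order and apart, and T and B cells and the oligodendrocyte lineage (1470 CPM) overlapped. At 7 dpi under PLX5622 microglia and macrophages could not be told apart. For Apoc1 the first cluster changed with time under vehicle, from macrophages in sham to astrocytes and microglia, which overlapped, at 7 dpi. At 28 dpi the Dcn and Vtn cluster, with 117 UMIs in 10 of 66 cells (1243 CPM), overlapped with macrophages (1035 CPM).

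**Figure D1:**
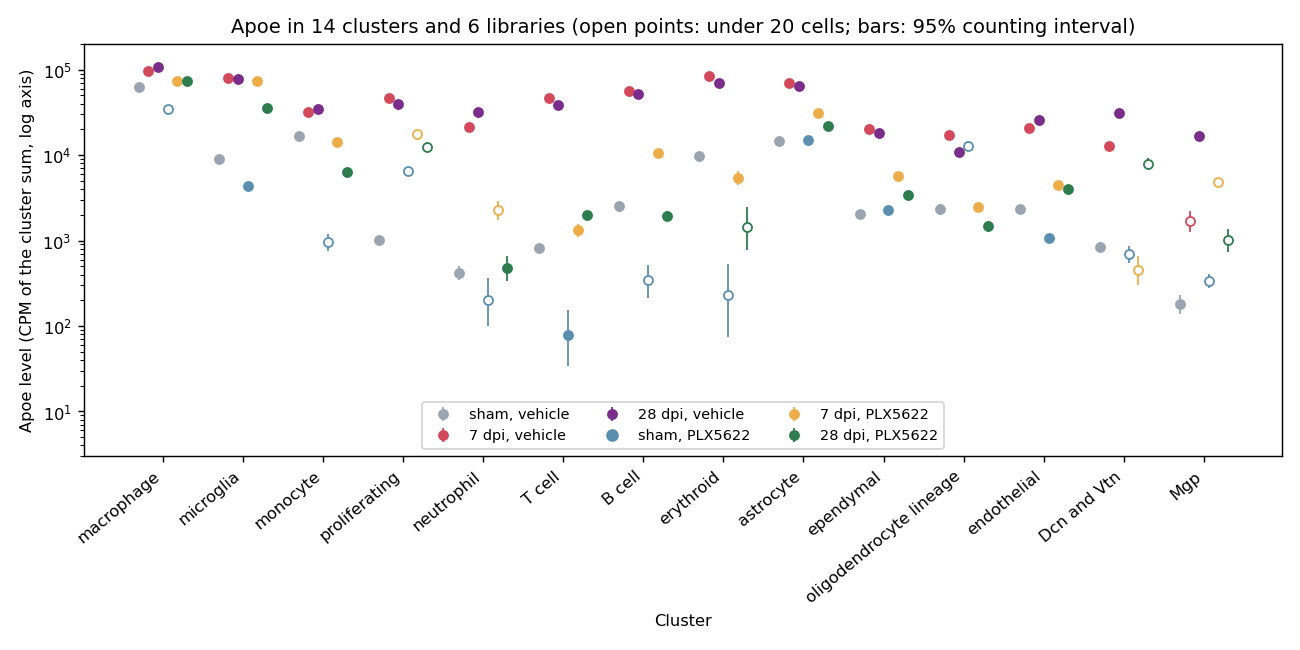
Apoe CPM (log axis) in each of the 14 clusters, 1 point per library with the 95% counting interval as a bar and open points for fewer than 20 cells. In the microglia cluster the sham vehicle point is at 9039 and both injured vehicle points are at 80171 and 78690, and in the T cell, B cell, erythroid and neutrophil clusters the injured vehicle points are far above the PLX5622 points.

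In microglia Apoe rose to the first rank of all transcripts after injury. Apoe in the microglia cluster was 9039 CPM in sham, 80171 at 7 dpi and 78690 at 28 dpi under vehicle, and 4363, 73719 and 35399 CPM under PLX5622. All 4 injured libraries were above both sham libraries. By UMIs Apoe had rank 7 in sham vehicle microglia, rank 19 in sham PLX5622 microglia and rank 1 in all 4 injured libraries. Under vehicle, 7 dpi over sham was 8.87-fold (log2 3.15, 3.13 to 3.17) and 28 dpi over sham 8.71-fold (log2 3.12, 3.10 to 3.14). Between 7 and 28 dpi the log2 ratio under vehicle was -0.03. Among genes that reached 100 UMIs in both libraries together, 4.02% were at least 2-fold higher and 21.5% at least 2-fold lower at 7 dpi than in sham, and 3.62% and 12.5% at 28 dpi. Apoe and the other transcripts that rose take a larger share of the total, and scaling by edgeR's TMM factors, which allow for this, moved every gene up by 0.55 at 7 dpi and 0.43 at 28 dpi, so that Apoe reached 3.70 and 3.55.

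At 7 dpi the low, middle and high microglial cells were each above those of sham. Per 10000 UMIs of a cell, the median of Apoe was 10.2 in sham with a 10th percentile of 0, and 716 at 7 dpi with a 10th percentile of 201. At 28 dpi the median was 578 and the 10th percentile 53.1, so the lower end came down while the 90th percentile, 1505 at 7 dpi and 1604 at 28 dpi, did not. In sham the cells were unlike each other, and the 68 highest of 674 cells held 67.8% of Apoe UMIs, against 27.4% for the highest 10% of cells at 7 dpi. After each cell was thinned to 1000 UMIs, Apoe was found in 56.2% of sham microglia (51.9 to 60.4) and 99.9% of 7 dpi microglia (99.6 to 100), and in 70% and 100% of the cells unthinned. T cells of the same libraries had it in 21.3% and 95.9% after thinning. At 28 dpi the 10th percentile of microglia, 53.1, was near the median of T cells, 47. Restricted to cells with a UMI of P2ry12, Tmem119, Siglech or Gpr34, genes of resting microglia, the log2 ratios were 3.12 at 7 dpi and 3.08 at 28 dpi. Kept were 666 of 674 cells in sham, 1993 of 2154 at 7 dpi and 3592 of 3974 at 28 dpi. With so few cells left out the ratios could change little. This restriction was chosen after the data were seen.

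Under PLX5622 the few remaining microglia also had high Apoe after injury, and it came down from 7 to 28 dpi. The PLX5622 microglia numbered 29, 61 and 126 cells. At 7 dpi their log2 ratio to sham was 4.08 (3.96 to 4.20), and at 28 dpi it was 3.02 (2.90 to 3.14), beside 6.99% and 11.6% of genes at least 2-fold higher. From 7 to 28 dpi the log2 ratio was -1.06 (-1.09 to -1.03), beside 1.55% of genes at least 2-fold lower, and the median per 10000 UMIs went from 525 to 243. Against vehicle at the same time, PLX5622 microglia were at -1.05 in sham, -0.12 at 7 dpi and -1.15 at 28 dpi, beside 7.75%, 4.88% and 5.87% of genes at least 2-fold lower. The sham value rests on 29 cells and was -0.14 (-0.37 to 0.08) after thinning.

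In macrophages Apoe was already the most abundant transcript without injury. Apoe in the macrophage cluster was 62248, 95581 and 106535 CPM in sham and at 7 and 28 dpi under vehicle, and 73090 and 74407 CPM at 7 and 28 dpi under PLX5622. The 9 cells of sham PLX5622 gave 34226 CPM. Both PLX5622 libraries of injured cords lay between the sham and the injured vehicle libraries. The log2 ratio to sham was 0.62 at 7 dpi and 0.78 at 28 dpi, and PLX5622 over vehicle was -0.39 at 7 dpi and -0.52 (-0.53 to -0.51) at 28 dpi. The median cell had 420 Apoe UMIs per 10000 in sham, 956 at 7 dpi and 1071 at 28 dpi, and 753 and 760 under PLX5622. In the monocyte cluster Apoe was lower throughout, at 16948, 32085 and 34428 CPM under vehicle, and at 14173 and 6421 CPM at 7 and 28 dpi under PLX5622. There the 28 dpi ratio of PLX5622 to vehicle was -2.42 (-2.49 to -2.36), beside 13.1% of genes at least 2-fold lower, and 1 of 63 PLX5622 cells held 28.6% of the UMIs. Without the highest cell of each library it was -2.87.

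**Figure D2:**
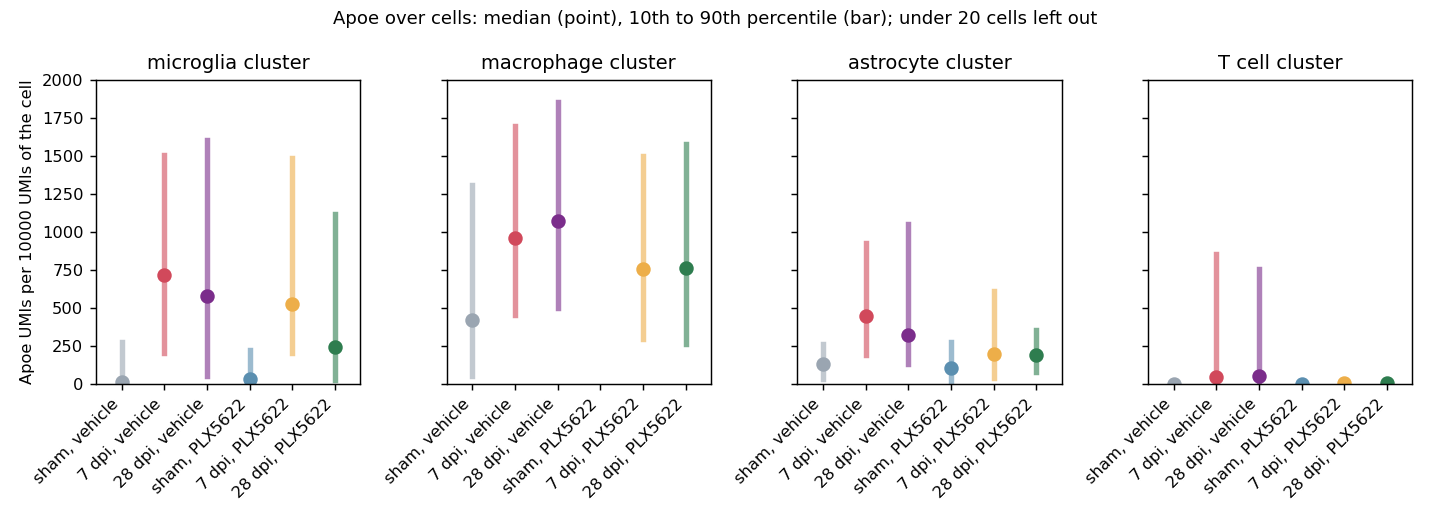
Apoe UMIs per 10000 UMIs of a cell in 4 clusters, with the median as a point and the 10th to 90th percentile as a bar for each library with at least 20 cells. The microglia bar reaches from 0 to 274 in sham and from 201 to 1505 at 7 dpi under vehicle, while in T cells at 28 dpi under vehicle the median is 47 and the bar reaches 754.

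Astrocytes had Apoe in every library, in sham at nearly the same level under both diets. Apoe in the astrocyte cluster was 14486, 69120 and 64235 CPM in sham and at 7 and 28 dpi under vehicle, and 14993, 31252 and 21976 CPM under PLX5622. The 2 sham libraries differed by 0.05 on the log2 scale, and all 4 injured libraries were higher. The log2 ratio to sham was 2.25 at 7 dpi and 2.15 (2.12 to 2.18) at 28 dpi under vehicle, and 1.06 and 0.55 under PLX5622, beside 15.8%, 13.6%, 11.7% and 4.87% of genes at least 2-fold higher. RNA of myeloid cells moved with this result. The summed level of 12 myeloid genes, among them C1qa, Tyrobp and Trem2, was 1965, 24059 and 22796 CPM in the vehicle astrocytes and 121, 2361 and 1023 CPM in those under PLX5622. C1qa alone was at 392, 4082 and 4663 CPM and at 32.4, 362 and 198 CPM. Aqp4, a water channel of astrocytes, was at 2866, 2362 and 1942 CPM and at 2689, 4390 and 4394 CPM.

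In astrocytes with fewer than 3 UMIs of the myeloid genes the rise was smaller and the diets lay closer together. Such cells were 294, 25 and 122 under vehicle and 199, 34 and 103 under PLX5622, and in the injured cords they are also the shallower ones. Their Apoe level was 13747, 34803 and 28003 CPM under vehicle, and 15062, 25726 and 21605 CPM under PLX5622. All 4 injured libraries were again above both sham libraries. Under vehicle the log2 ratio of 7 dpi to sham became 1.34 (1.25 to 1.43) and that of 28 dpi 1.03 (0.97 to 1.08), and under PLX5622 it became 0.77 and 0.52. In cells with no myeloid UMI at all the 28 dpi value was 1.05, from 30 cells against 170. PLX5622 over vehicle went from -1.15 to -0.44 at 7 dpi and from -1.55 to -0.37 at 28 dpi, beside 36.1% and 25.3% of genes at least 2-fold lower over all cells, so the diets differed less in these cells. Apoe per 100 myeloid UMIs was 282 in 28 dpi vehicle astrocytes, beside 144 in microglia, 229 in macrophages and 234 in B cells of that library. At 28 dpi under PLX5622 it was 2149, beside 60.3, 162 and 99.6.

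**Figure D3:**
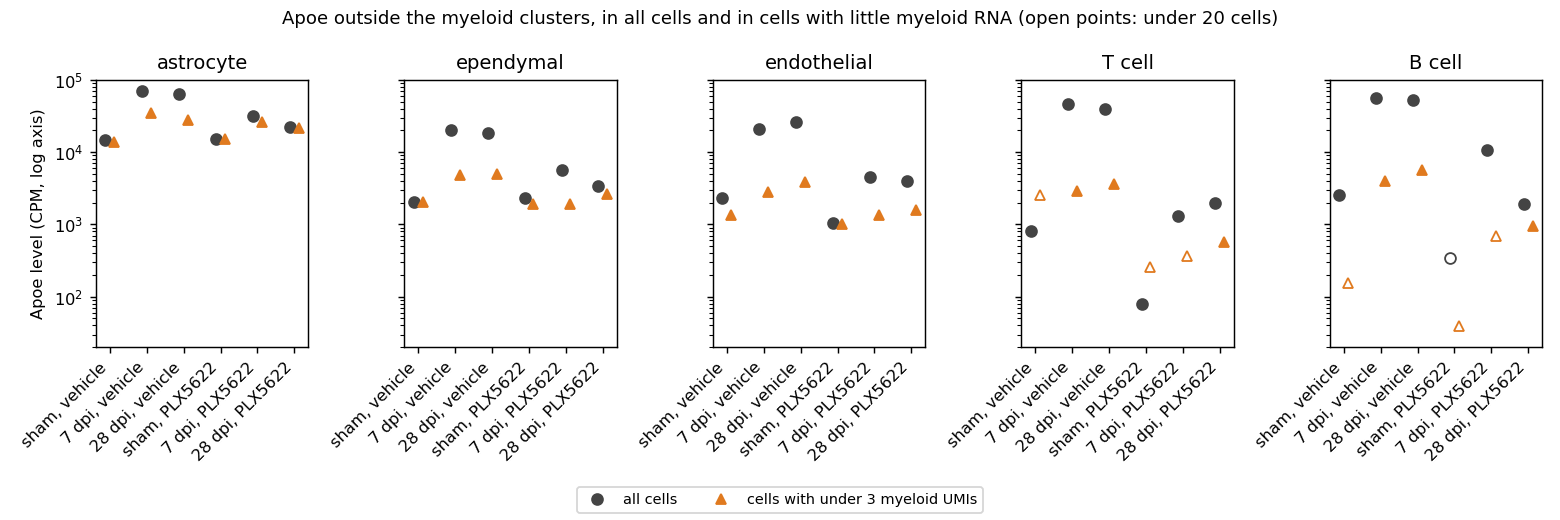
Apoe CPM (log axis) by library in 5 clusters outside the myeloid ones, with circles for all cells, triangles for cells with fewer than 3 UMIs of the myeloid genes, and open marks for fewer than 20 cells. In T cells at 28 dpi under vehicle the level is 39061 CPM over all cells and 3665 in the restricted cells, and in astrocytes 64235 and 28003.

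Types not known to make Apoe carried it after injury. Apoe in T cells was 817, 46392 and 39061 CPM in sham and at 7 and 28 dpi under vehicle, and 78.6, 1314 and 1973 CPM under PLX5622. B cells stood at 2525, 55850 and 51753 CPM under vehicle. The level was set by some of the cells, since the median T cell at 28 dpi under vehicle had 47 Apoe UMIs per 10000 and the 90th percentile was 754. After thinning, Apoe was found in 21.3%, 95.9% and 95% of T cells under vehicle and in 52.2% and 37.8% at 7 and 28 dpi under PLX5622, and unthinned in 38.8%, 97.4%, 98%, 73.9% and 68.2%. The myeloid genes moved with it, with 4784, 22097 and 19536 CPM in vehicle T cells and 1994, 3459 and 3098 CPM under PLX5622. Apoe per 100 myeloid UMIs in T cells was 210 and 200 at 7 and 28 dpi under vehicle, beside 230 and 229 in macrophages of those libraries. In sham vehicle it was 17.1 beside 129, and at 7 and 28 dpi under PLX5622 38 and 63.7 beside 187 and 162. In T cells with fewer than 3 myeloid UMIs Apoe was 2871 and 3665 CPM at 7 and 28 dpi under vehicle (27 and 96 cells), and 571 CPM at 28 dpi under PLX5622 (61 cells). A low share or level of a member in another cluster is set beside the T cell levels here. The source of the Apoe UMIs in T cells was not tested. In the erythroid cluster the myeloid genes were at 42303 and 38069 CPM at 7 and 28 dpi under vehicle, beside 41632 and 46547 CPM in macrophages. At least 3 myeloid UMIs were found in 100% and 88.6% of its 58 and 35 cells. The comparisons with the erythroid cluster below share this limit, and the source of its member UMIs was not tested.

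Endothelial and ependymal cells also had more Apoe after injury. In the endothelial cluster Apoe was 2326, 20899 and 25624 CPM under vehicle and 1060, 4489 and 4013 CPM under PLX5622. In cells with fewer than 3 myeloid UMIs it was 1361, 2822 and 3798 CPM and 1010, 1355 and 1587 CPM, and the 28 dpi ratio to sham under vehicle went from 3.46 to 1.48 (1.30 to 1.67), beside 5.06% of genes at least 2-fold higher over all cells. Ependymal cells went from 2064, 20035 and 18343 CPM to 2015, 4744 and 4938 CPM by the same restriction under vehicle, and the 28 dpi ratio from 3.15 to 1.29, beside 4.42%. In both clusters a rise of more than 2-fold at 28 dpi under vehicle was thus still found in cells with little myeloid RNA. T cells and B cells restricted in the same way had 3665 and 5562 CPM there, so B cells were above both clusters. Under PLX5622 the restricted ratios to sham at 7 and 28 dpi were 0.42 and 0.65 in endothelial and 0.01 and 0.45 in ependymal cells. In the restricted oligodendrocyte lineage under vehicle they were 0.24 and 0.69.

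Apoc1 was nearly absent from resting microglia and was concentrated in a minority of cells after injury. Apoc1 in the microglia cluster was 6.2 CPM in sham (13 UMIs), 655 at 7 dpi and 465 at 28 dpi under vehicle, and 0, 428 and 114 CPM under PLX5622. The injured libraries were all above both sham libraries. Against a floor of 3 counts in sham, the PLX5622 levels were 20.2-fold and 5.38-fold higher at 7 and 28 dpi, values that depend on the floor. At 7 dpi 4 of the 61 PLX5622 cells held 80.5% of the UMIs, and the others had 91.6 CPM. Under vehicle the 7 dpi library stood 6.72 (5.95 to 7.63) above sham on the log2 scale and the 28 dpi library 6.23 (5.45 to 7.14), beside the 4.02% and 3.62% of genes named above. The thinned share of microglia with Apoc1 was 0.365%, 23.3% (21.4 to 25.2) and 20% (18.6 to 21.4), and 1.48%, 37.7% and 26.2% unthinned. T cells had it in 1.64%, 9.09% and 9.96% after thinning and 1.49%, 12.4% and 15.5% before, so the injured microglia exceeded T cells beyond counting error. Other clusters came closer. At 28 dpi under vehicle B cells had 439 (387 to 495), neutrophils 433 (368 to 506) and the erythroid cluster 684 (519 to 884) CPM, so microglia (450 to 480) were not above these. At 7 dpi they were, with 636 to 675 CPM against 404 (330 to 489) in the erythroid cluster.

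In macrophages Apoc1 came later. Apoc1 in the macrophage cluster was 348, 375 and 1035 CPM in sham and at 7 and 28 dpi under vehicle, and 86.5 and 696 CPM at 7 and 28 dpi under PLX5622. Under both diets 28 dpi was above 7 dpi. The sham vehicle level rested on few cells, since 6 of 185 cells, with at least 10 Apoc1 UMIs each, held 74.9% of the UMIs. The other 179 sham cells had 92.7 CPM, and cells with fewer than 10 had 141 and 308 CPM at 7 and 28 dpi under vehicle. The log2 ratio of 28 to 7 dpi was 1.47 (1.42 to 1.51) under vehicle and 3.01 (2.76 to 3.27) under PLX5622, beside 3.29% and 2.06% of genes at least 2-fold higher. In microglia the same ratio was -0.49 (-0.56 to -0.43) and -1.91 (-2.40 to -1.44), so the order of the 2 times was opposite in the 2 clusters. PLX5622 over vehicle in macrophages was -2.12 (-2.36 to -1.88) at 7 dpi, beside 2.17% of genes at least 2-fold lower, and -0.57 (-0.67 to -0.47) at 28 dpi. In the monocyte cluster Apoc1 stayed lower, between 52.7 and 216 CPM under vehicle.

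Apoc1 was uneven between cells. Cells with at least 10 Apoc1 UMIs, a cut chosen after the data were seen, were 6.41% of the 7 dpi and 2.49% of the 28 dpi vehicle microglia and held 62.7% and 45.7% of the Apoc1 UMIs. Of vehicle macrophages they were 7.08% at 7 dpi and 13.3% at 28 dpi, with 65.5% and 74.8% of the UMIs. For Apoe, by contrast, the highest 10% of macrophages held 22.8% and 21.8%. As a description of cells picked for Apoc1, the high 7 dpi microglia had 96607 CPM of Apoe, 186 of Apoc4 and 214 of P2ry12, and the others 78564, 83.6 and 364 CPM. In the high 7 dpi macrophages Gpnmb, a lysosomal glycoprotein of macrophages that take up lipid, was at 3590 CPM and in the others at 8170 CPM, and at 28 dpi the values were 3164 and 2487 CPM. High vehicle cells of both clusters had more Apoc4 than the others at 7 dpi, and for Gpnmb the order changed with time.

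Apoc1 ratios changed without these cells. Such a cut uses the Apoc1 count itself and takes more cells from deeper libraries, so the values are descriptions and the part of depth was not tested. Under PLX5622, 1 of 161 macrophages at 28 dpi held 371 of 896 Apoc1 UMIs (41.4%), and 10 cells held 88.5%. Without the highest cell of each library the 28 over 7 dpi ratio was 2.41, and without cells of at least 10 UMIs it was 0.36 (-0.03 to 0.75), with 89.9 and 70.1 CPM. PLX5622 over vehicle at 28 dpi went from -0.57 to -1.78 without cells of at least 10 UMIs, and to -1.31 without the highest cells alone. Under vehicle the macrophage ratio of 28 to 7 dpi went from 1.47 to 1.13 (1.05 to 1.20) without the high cells. For microglia the 28 over 7 dpi ratio became -0.02 under vehicle and -0.23 under PLX5622, and the 7 dpi ratio to sham 5.43. PLX5622 over vehicle in 7 dpi macrophages went from -2.12 to -1.01 (-1.28 to -0.75), with 70.1 and 141 CPM. The rise with injury in vehicle microglia and the rise from 7 to 28 dpi in vehicle macrophages were thus also found without these cells.

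**Figure D4:**
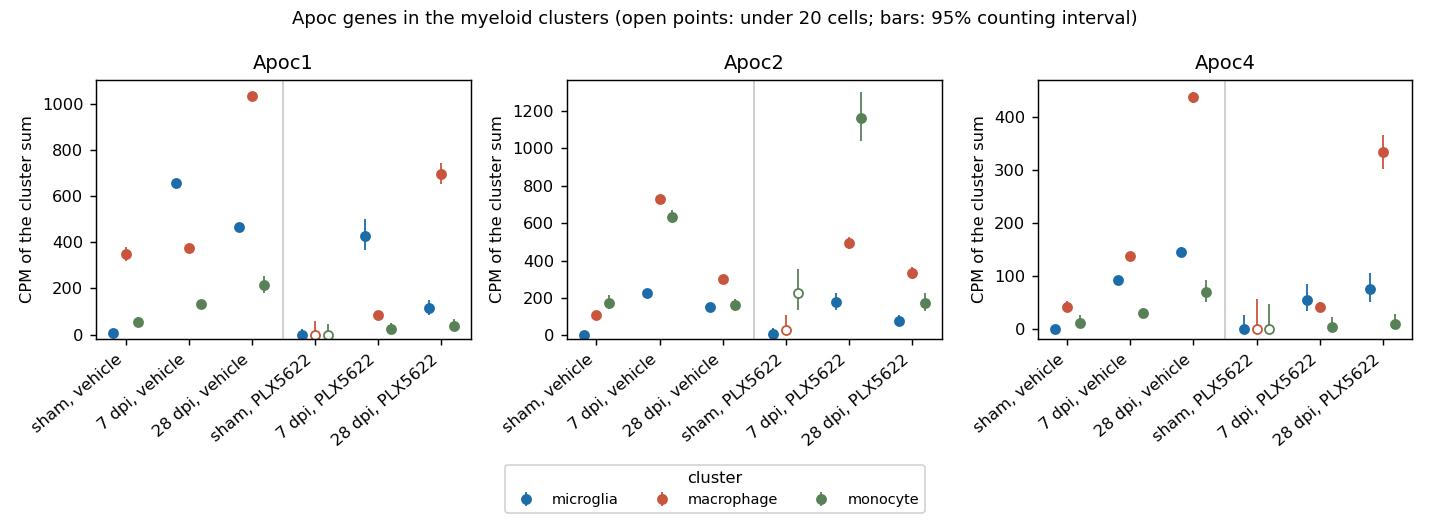
CPM of Apoc1, Apoc2 and Apoc4 in the microglia, macrophage and monocyte clusters of each library, with 95% counting intervals and open points for fewer than 20 cells. Macrophage Apoc1 and Apoc4 are highest at 28 dpi under vehicle (1035 and 438 CPM), and macrophage Apoc2 at 7 dpi (728 CPM).

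Apoc1 in astrocytes rested on few UMIs. It was 29.5, 669 and 217 CPM in the astrocyte cluster under vehicle and 46.1, 276 and 165 CPM under PLX5622, from 23 to 123 UMIs. In sham cords, where the vehicle astrocytes had 1965 CPM of myeloid RNA and those under PLX5622 had 121, the PLX5622 astrocytes had 27 UMIs of Apoc1 and the 29 microglia and 9 macrophages of that library none. At 7 dpi 1 cell held 43.1% of the UMIs under vehicle and 1 cell 72.4% under PLX5622. The log2 ratio of 7 dpi to sham was 4.50 under vehicle and 2.58 under PLX5622, and without the highest cell of each library 3.87 and 1.07 (-0.30 to 2.28). Apoc2 and Apoc4 had no UMI in the sham astrocytes of either diet in the counts used here. After injury Apoc2 in astrocytes was 250 and 106 CPM under vehicle and 28.6 and 6.6 CPM under PLX5622, and Apoc4 was 54.4 and 215 CPM under vehicle and 0 and 13.2 CPM under PLX5622. Both were thus low where the myeloid RNA of the cluster was low, and its part in them was not tested.

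Apoc2, the activator of lipoprotein lipase, was highest in macrophages and monocytes early after injury. Apoc2 in macrophages was 110, 728 and 304 CPM in sham and at 7 and 28 dpi under vehicle, and 494 and 333 CPM at 7 and 28 dpi under PLX5622. Under both diets 7 dpi was the higher time. The log2 ratio of 7 dpi to sham was 2.73 (2.50 to 2.96), beside 4.09% of genes at least 2-fold higher, and that of 28 to 7 dpi was -1.26 (-1.31 to -1.21) under vehicle, beside 3.6% of genes at least 2-fold lower, and -0.57 under PLX5622. PLX5622 over vehicle was -0.56 at 7 dpi and 0.13 (-0.01 to 0.28) at 28 dpi. At 7 dpi more macrophages had Apoc2 than Apoc1, and at 28 dpi fewer did. After thinning Apoc2 was found in 8%, 44% (42.2 to 45.8) and 23% of vehicle macrophages, and in 30.8%, 85% and 57.5% unthinned, and the highest 10% of cells held 35.7% of its UMIs at 7 dpi. Apoc1 was found in 9.71%, 18.5% and 33% of these cells after thinning, and in 29.7%, 46.1% and 55.3% unthinned.

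Monocytes also had Apoc2. In the monocyte cluster it was 176, 635 and 162 CPM under vehicle, and 1164 and 173 CPM at 7 and 28 dpi under PLX5622. The 7 dpi libraries were thus the highest under each diet. The log2 ratio of 28 to 7 dpi was -1.97 (-2.28 to -1.68) under vehicle and -2.75 (-3.19 to -2.33) under PLX5622, beside 1.94% and 13.1% of genes at least 2-fold lower, and PLX5622 over vehicle at 7 dpi was 0.87 (0.69 to 1.05), from 29 cells against 602. In microglia Apoc2 was likewise nearly absent in sham, with 2.39, 227 and 150 CPM under vehicle and 7.06, 177 and 76.8 CPM under PLX5622. The sham values rest on 5 UMIs and 1 UMI. The vehicle ratio of 7 dpi to sham was 6.57 (5.35 to 8.20) and that of 28 dpi to sham 5.97 (4.74 to 7.60). T cells had 208 (164 to 260) and 72.1 (52.6 to 96.5) CPM of Apoc2 at 7 and 28 dpi under vehicle, and the erythroid cluster had 465 (386 to 556) and 153 (81.6 to 262) CPM. The microglial level was thus not above the erythroid cluster beyond counting error at either time. That cluster held 42303 and 38069 CPM of the myeloid genes at these times, and their part was not tested. Under PLX5622 no Apoc2 UMI was counted in T cells.

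Apoc4 in macrophages was highest at 28 dpi under both diets. Apoc4 in macrophages was 40.9, 137 and 438 CPM in sham and at 7 and 28 dpi under vehicle, and 40.1 and 334 CPM at 7 and 28 dpi under PLX5622. It rose with time under both diets. The log2 ratio of 28 to 7 dpi was 1.67 (1.61 to 1.74) under vehicle and 3.06 (2.69 to 3.45) under PLX5622, that of 28 dpi to sham 3.42 (3.05 to 3.82), beside 1.53% of genes at least 2-fold higher, and PLX5622 over vehicle was -1.78 (-2.14 to -1.44) at 7 dpi and -0.39 at 28 dpi. In microglia the counts used here held no Apoc4 UMI in sham under either diet. At 7 and 28 dpi Apoc4 was 92.7 and 146 CPM under vehicle and 54.8 and 74.5 CPM under PLX5622. Against a floor of 3 counts in the sham library, the vehicle levels were 64.8-fold and 102-fold higher, values that depend on the floor. Thinned shares of vehicle macrophages with Apoc4 were 1.14%, 11.7% and 29.2%, and 13%, 35.4% and 57% unthinned, while T cells had 0%, 4.96% and 6.22% thinned and 0%, 9.8% and 10.3% unthinned. The exact interval for 0 of 67 sham T cells reaches 5.36%. Apoc4 in T cells was 86.5 (59.1 to 122) and 154 (125 to 188) CPM at 7 and 28 dpi under vehicle. The microglial level under vehicle was thus not above that of T cells beyond counting error. Of these T cells 82.4% and 72.5% had at least 3 myeloid UMIs, and the source of their Apoc4 was not tested. Macrophages (132 to 143 CPM) overlapped at 7 dpi with the erythroid cluster at 104 (68.4 to 151) CPM, and at 28 dpi (427 to 449 CPM) stood above all of T cells, B cells, neutrophils and the erythroid cluster, which had 142 to 197 CPM. Under PLX5622 the T cells had 0 and 7.64 CPM.

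The Apoc genes thus kept no fixed proportion. In macrophages there were 31.6 Apoc2 UMIs per 100 Apoc1 UMIs in sham, 194 at 7 dpi and 29.4 at 28 dpi under vehicle, and 571 and 47.9 at 7 and 28 dpi under PLX5622. Apoc4 per 100 Apoc1 was 11.7, 36.7 and 42.4 under vehicle and 46.4 and 48 under PLX5622. Apoc1 per 1000 Apoe was 5.6, 3.92 and 9.71, and 1.18 and 9.36 under PLX5622. The Apoc2 to Apoc1 ratio was thus higher at 7 than at 28 dpi under both diets. These ratios lean on the few cells high in Apoc1. In vehicle macrophages with fewer than 10 Apoc1 UMIs, Apoc2 and Apoc1 were at 106 and 92.7 CPM in sham. In such cells they were at 742 and 141 CPM at 7 dpi, and at 299 and 308 CPM at 28 dpi. Under PLX5622 at 28 dpi 10 cells held 88.5% of Apoc1, and the other cells had 338 CPM of Apoc2 and 89.9 of Apoc1, against 494 and 70.1 CPM in such cells at 7 dpi. Within a cell the Apoc genes went together only loosely. Of thinned 28 dpi vehicle macrophages with Apoc2, 37.3% had Apoc4, against 26.8% of those without Apoc2. At 7 dpi the shares were 11.7% and 11.8%.

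With the filter of 100 UMIs, Apod had too few UMIs for a ratio in microglia, macrophages and astrocytes, where it lay between 0 and 46.2 CPM. The other 4 members passed it in vehicle microglia mainly through the injured libraries, so a count of these members says little. In vehicle microglia 4 members were at least 2-fold higher than sham at both times, beside 4.02% of all genes at 7 dpi and 3.62% at 28 dpi. In vehicle macrophages these were Apoc2 and Apoc4 at 7 dpi, beside 4.09%, and Apoc1, Apoc2 and Apoc4 at 28 dpi, beside 1.53%, while the ratio of Apoe was below 2-fold at both.

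Apod was a gene of the Dcn and Vtn cluster, where it was among the 10 genes that set this cluster apart, so its level there is a description. It was 14660, 3913 and 17057 CPM in sham and at 7 and 28 dpi under vehicle (41, 20 and 66 cells), and 319, 32871 and 38133 CPM under PLX5622 (19, 10 and 12 cells). The libraries differ widely and in no order of time or diet. In 7 dpi PLX5622, 1 cell held 2077 of 2084 UMIs (99.7%), and in 28 dpi PLX5622 1 cell held 53.4%. Under vehicle the 3 highest cells held 61.5% of the UMIs in sham, 77.3% at 7 dpi and 34.1% at 28 dpi, so these levels also rest on few cells. Under vehicle the 7 dpi log2 ratio to sham was -1.91 (-2.14 to -1.68) and the 28 dpi ratio 0.22 (0.13 to 0.30), beside 23.1% of genes at least 2-fold lower and 6.42% at least 2-fold higher. Within the cluster Apod divided the cells. The 92 cells with more UMIs of pericyte than of fibroblast markers had 142 CPM (22 UMIs), and the 74 cells with more of the fibroblast markers had 20073 CPM (7983 UMIs, 57 cells with a UMI).

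In the fibroblast-marked cells alone, a choice made after the data were seen, Apod was 16167, 6918 and 37719 CPM in sham and at 7 and 28 dpi under vehicle (29, 8 and 25 cells). Under PLX5622 it was 417, 42669 and 169460 CPM in 6, 3 and 3 cells. The vehicle order of 7 dpi lowest and 28 dpi highest was kept. The log2 ratio of 28 dpi to sham became 1.22 in place of 0.22, and that of 7 dpi to sham, from only 8 cells, -1.22 in place of -1.91. The fibroblast-marked cells were 29 of 41, 8 of 20 and 25 of 66 of the cluster's vehicle cells.

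**Figure D5:**
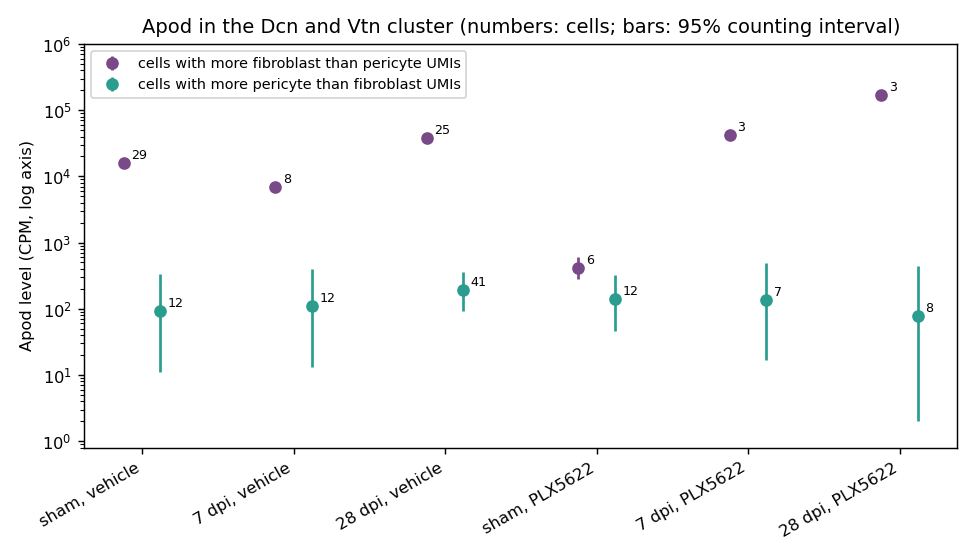
Apod CPM (log axis) in the Dcn and Vtn cluster of each library, split into cells with more fibroblast marker UMIs (purple) and more pericyte marker UMIs (green), with the number of cells beside each point and 95% counting intervals. The pericyte-marked cells lie between 78.7 and 193 CPM in every library, and the fibroblast-marked cells between 417 and 169460 CPM.

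Outside that cluster Apod was found mainly in the Mgp cluster and in endothelial cells. The Mgp cluster, led by the matrix gene Mgp, had 2011, 1153 and 297 CPM under vehicle and 177, 410 and 243 CPM under PLX5622, and 1 sham vehicle cell held 51.2% of its library's UMIs there. Endothelial Apod was 275, 428 and 238 CPM under vehicle and 134, 356 and 357 CPM under PLX5622. Sham PLX5622 was the lowest and 7 dpi vehicle the highest. The log2 ratio to sham was 0.64 (0.31 to 0.98) and -0.21 (-0.58 to 0.17) at 7 and 28 dpi under vehicle, and 1.41 (1.02 to 1.80) and 1.41 (0.95 to 1.87) under PLX5622, beside 1.62% and 0.918% of genes at least 2-fold higher. Without the highest cell of each library these last 2 were 1.25 and 1.00. Endothelial cells held 66.5% (63.3 to 69.5) of Apod UMIs in the 7 dpi vehicle library, where the Dcn and Vtn cluster had 20 cells. In the T, B and ependymal clusters, where a library had at least 20 cells, Apod was at 0 to 20.5 CPM, so the levels of endothelial cells stood above those of cells not known to make it.

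Partners of the members in lipid transport were followed as a list of 39 genes, 32 of them in the table: receptors, lipidation and efflux, lipoprotein lipase, nuclear receptors, other apolipoproteins and Apod partners. In vehicle microglia 16 of them had at least 100 UMIs at 7 dpi and sham together, with 4 at least 2-fold higher and 1 lower, beside the 4.02% and 21.5% of all genes given above, and a median log2 ratio of 0.05, beside -0.54 for all genes. The highest were Pltp, a phospholipid transfer protein (4.34, from 2.86 to 57.9 CPM), and Lpl, lipoprotein lipase, which Apoc2 activates (3.37, from 53.4 to 551 CPM). The lowest were Scarb1, a receptor of high density lipoprotein (-1.08), and Nr1h2, a sterol-sensing nuclear receptor (-0.91). At 28 dpi 3 of 17 were at least 2-fold higher and none lower, beside 3.62% and 12.5%, led by Lpl (4.04) and Pltp (2.99), with Scarb1 (-0.86) and Lmf1, a lipase maturation factor (-0.68), lowest.

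In macrophages Lpl was lower than sham at 7 dpi and little changed at 28 dpi (0.16). At 7 dpi over sham 4 of 20 genes were at least 2-fold higher and 2 lower, beside 4.09% and 11% of all genes (median 0.22, all genes -0.25), with Pltp at 2.13, Sorl1, a sorting receptor, at -1.06 and Lpl at -1.03. Angptl4, an inhibitor of lipase, had no UMI in sham and 11.2 CPM at 7 dpi. At 28 dpi over sham none of 19 passed 2-fold in either direction, beside 1.53% higher and 5.63% lower, the ends being Clu at 0.74 (from 6 UMIs in sham) and Abca1 at 0.50, and Sorl1 at -0.89 and Rxrb at -0.60. PLX5622 over vehicle at 28 dpi, where 2.33% of all genes were at least 2-fold higher and 2.48% lower, put Pltp at 1.98 and Lrp1, a receptor of Apoe, at 0.96, and Lpl at -1.20 and Clu, another apolipoprotein, at -0.60 (from 6 UMIs under PLX5622). In vehicle astrocytes at 28 dpi the highest were Lpl (6.61, from 6 UMIs in sham) and Trem2 (3.26), both of which were at 52.8 and 46.2 CPM under PLX5622 at that time, against 753 and 1413 CPM, and the lowest Bsg, a membrane glycoprotein that binds Apod (-0.81), and Clu (-0.02), beside 13.6% of genes higher and 17.9% lower. Trem2 is also in the myeloid list, and the part of myeloid RNA in these 2 was not tested.

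The genes whose levels ran most like each member were listed over 66 sums of a cluster and a library with at least 20 cells, by Pearson's r of log2(CPM + 10) among 9655 genes. These sums share libraries, and the values are descriptions. For Apoe they were Ctsb (0.89), Apoc1 (0.87) and Syngr1 (0.87). Apoc1 was most like Apoe (0.87), Apoc4 (0.87) and Lpl (0.81), and Apoc4 was most like Apoc1 (0.87), Lpl (0.85) and Ctsd (0.83). Apoc2 stood apart, with Ms4a7 (0.92), Tmem106a (0.88) and Ms4a6c (0.87), of which Ms4a7 is a macrophage marker here. Apod was most like Pde5a (0.92), Hic1 (0.90) and Ogn (0.89), and its r with Apoe was -0.21. By Spearman's rho, which uses ranks, its highest value was only 0.65, with Mustn1, and Hic1 was at 0.60.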

How the data were processed

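Single-cell 3' libraries (10x Genomics) from 6 pools of mice were used, and bulk RNA-seq samples were not analysed here. Per the study's methods and the submitters' notes, the authors ran Cell Ranger on the reads and Seurat on the resulting matrices (mm10 and GRCm38 are the builds named). The deposited values are raw counts of UMIs for each cell, next to a cluster number. Barcodes under 200 genes are absent from the table. Integration by the authors shaped the clusters but not the counts, and doublets were left in. Columns not mapped to a sample: 0.

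From the counts, CPM of each cluster and library carry exact Poisson 95% intervals, and log2 ratios exact conditional binomial ones, where both sides had at least 20 cells. For a gene without counts the floor was 3 UMIs. Shares of cells carry Clopper-Pearson intervals, and were also computed with each cell thinned to 1000 UMIs. There were 9 contrasts, namely times within each diet and diets at each time. Library totals were 2606149 to 35694246 UMIs. The intervals were tried on simulated counts with counting error only. These counts lack the clumping of transcripts in a few cells, so they say nothing about it. Named genes were the 5 members, the 2 highest and 2 lowest of the pathway list per main contrast, the 3 genes most like each member, and markers. Members and lists were chosen with earlier results of these data known. Computing used Python 3.11.15 with numpy 2.4.6 and scipy 1.17.1. Scaling factors alone came from edgeR 4.0.16 and DESeq2 1.42.0 under R 4.3.3. Alternatives changed scaling, weighting, depth and the cells kept.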

Additional observations from a re-analysis of the deposited data

Results flagged for a closer look

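The change from 7 to 28 dpi differed between microglia and macrophages for Apoe under PLX5622 and ran in opposite directions for Apoc1, by intervals that cover counting error only, and none of these differences was tested. For Apoe under PLX5622 the log2 ratio of 28 to 7 dpi was -1.06 in microglia and 0.03 in macrophages, and the macrophage value was -0.01 with edgeR's TMM factors, so macrophages hardly moved. For Apoc1 under vehicle it was -0.49 in microglia and 1.47 in macrophages. For Apoc1 under PLX5622 it was -1.91 in microglia and 3.01 in macrophages. Without cells of at least 10 Apoc1 UMIs, a cut that uses the outcome itself, the 4 Apoc1 values were -0.02, 1.13, -0.23 and 0.36, and the 2 microglia values and the PLX5622 macrophage value then had intervals that include 0.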

How the results depend on the processing

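No paired analysis was possible because each condition is 1 library. The PLX5622 libraries hold few cells, and microglia there numbered 29 to 126. Over all cells of the PLX5622 libraries the median UMIs per cell were 3448.5, 5127 and 2641 in sham and at 7 and 28 dpi. Under vehicle the medians were lower, at 3176, 3983 and 2268.5. For Apoe in vehicle microglia the 7 dpi ratio to sham (log2 3.15) was 3.70 with TMM factors, 3.73 with DESeq2 size factors, 3.26 with totals without the members, 3.32 without ribosomal protein genes, 3.12 with cells weighted alike, 3.32 after thinning, 3.18 in cells with at least 500 genes, 3.45 without the top 10% of cells by UMIs, 3.12 in cells with a resting microglia gene and 3.19 without the highest cell. In the same order the 28 dpi ratio (3.12) was 3.55, 3.58, 3.23, 3.25, 2.96, 3.28, then 3.42, 3.08 and 3.16 for the last 3. For macrophages under PLX5622 against vehicle at 28 dpi (-0.52) the values were -0.58 (TMM), -0.56 (DESeq2), -0.57 (without members), -0.46 (cells alike), -0.46 (thinned) and -0.50 (at least 500 genes). For astrocytes at 28 dpi against sham (2.15) they were 2.39, 2.40, 2.22, 2.28, 1.80 and 1.93 for the first 6 settings, 1.75 without the top 10% of cells, 2.23 without the highest cell, and 1.03 and 1.05 in cells with fewer than 3 and with 0 myeloid UMIs. The share of genes at least 2-fold higher in microglia at 7 dpi, 4.02%, was 7.49% with a minimum of 500 UMIs. The share of 7 dpi vehicle microglia with Apoc1 was 23.3% thinned and 37.7% unthinned. Of 15 pairs of a member and a like gene, 7 remained with Spearman's rho. Of the 1901 alternative values of the 194 other ratios, 1229 lay within the reported counting interval and 662 outside it. The remaining 10 follow. Among 194 other ratios with 1901 alternative values, 10 values had the opposite sign where the reported ratio was past 2-fold: Apoe 28 over 7 dpi was 1.62 in PLX5622 B cells and -0.37 in the vehicle Dcn and Vtn cluster without the top 10% of cells, Apoc1 28 over 7 dpi under vehicle was -0.06 in endothelial and -0.81 in ependymal cells with fewer than 3 myeloid UMIs, -0.08 in ependymal cells without the top 10%, and 0.01 in astrocytes without cells of at least 10 Apoc1 UMIs, Apoc1 in PLX5622 over vehicle astrocytes at 7 dpi was 0.35 and Apoc2 28 over 7 dpi in vehicle ependymal cells 0.34 in cells with fewer than 3 myeloid UMIs, Apoc4 28 over 7 dpi in vehicle monocytes was -0.17 thinned, and Apod in sham PLX5622 over vehicle endothelial cells was 0.08 in cells with 0 myeloid UMIs. Ratios under 2-fold also changed sign, such as Apoe 28 over 7 dpi in PLX5622 ependymal cells (-0.73, and 0.44 with fewer than 3 myeloid UMIs) and Apod 28 dpi over sham in vehicle endothelial cells (-0.21, and 1.59 with 0 myeloid UMIs). The cause was not tested. The settings on resting microglia genes, 0 myeloid UMIs, the highest cell and cells of at least 10 Apoc1 UMIs were chosen after the data were seen.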

Other observations

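In 28 dpi vehicle microglia, 16.2% of thinned cells with an Apoc1 UMI also had Apoc4, and 8.84% of cells without Apoc1 did. With Apoc2 in place of Apoc1 the shares were 20.4% and 8.88%. The matrix of the sham PLX5622 library holds 4 UMIs of Apoc4 in 1 cell where the count table holds 0, and for the other members that library's cells had the same counts in both. Neither value enters a ratio in the text. The cluster of that cell was not looked up, so the absence of Apoc4 from sham PLX5622 clusters holds for the count table alone.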
